A study of Mus musculus with 8 samples.

Results

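Matrix metalloproteases (MMP), the related ADAMTS proteases, the ADAMTS-like proteins and the tissue inhibitors of metalloproteases (TIMP) were examined in whole kidneys of mouse embryos. The set was chosen with earlier results of these data known, and its members were taken by gene symbol. They are every gene named Mmp, Adamts, Adamtsl or Timp with a number that a RefSeq accession on the array links to a probe. The annotation holds 51 such genes, of which Mmp27 had no named probe. The other 50 were represented by 75 probes, among 22911 named genes on the array. Of these 50, 36 were bright enough to be tested, among 16013 genes tested in all.

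The mutant kidneys were from embryos at embryonic day 14.5 with a conditional knockout of Mdm4 driven by a Hoxb7Cre transgene. They were compared with wild-type kidneys of the same age. Mdm4 is an inhibitor of p53, and Hoxb7-driven Cre acts in the ureteric bud lineage, so most kidney cells keep the gene. There were 4 mutant and 4 wild-type RNAs in 4 pairs, each pair hybridised to 2 dye-swapped 2-colour Agilent arrays. Per the labels it is unknown if an RNA is of 1 embryo or of several, and a pair number means no more than shared arrays. All p-values rest on the variation among the 4 pairs, some of which may be technical.

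MMPs are zinc enzymes made as inactive precursors, and they cut collagens, proteoglycans and other matrix proteins. Some are secreted, whereas the membrane-type members stay on the cell surface and can switch on secreted ones. ADAMTS proteases trim procollagens, proteoglycans and microfibrils, and the ADAMTS-like proteins share their domains but lack the protease. TIMPs bind and block the active enzymes. In the developing kidney such proteins remodel the matrix around the branching ureteric bud.

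The first result concerned which genes could be seen at all. Each genotype was read in 8 channels, a channel being 1 colour of 1 array. A gene was kept if, in one genotype or the other, 6 or more channels were flagged as well above background. By this filter 11 of 22 MMP genes, 18 of 19 ADAMTS genes, 3 of 5 ADAMTS-like genes and 4 of 4 TIMP genes were kept. Of the kept genes 31 were above background in all 16 channels. Mmp25, whose product is attached to the surface of leukocytes, passed only through its mutant channels, with 6 of 8 in the mutant and 2 of 8 in wild type. It passed through the group where it was detected more often, so its difference supports nothing.

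Position in the genome ran with detection. On chromosome 9, 10 MMP genes stand in an unbroken row in the annotation, with 0 other protein-coding genes between them, in the order Mmp13, Mmp12, Mmp1b, Mmp3, Mmp1a, Mmp10, Mmp8, Mmp27, Mmp20 and Mmp7. Of these, 9 had a named probe and 0 were kept, whereas 11 of the 13 MMP genes elsewhere were kept. The collagenase genes Mmp1a, Mmp1b and Mmp13, the stromelysin gene Mmp3, the macrophage elastase gene Mmp12 and the enamel protease gene Mmp20 had 0 channels above background in either genotype. Mmp8, the neutrophil collagenase, had 5 of 8 mutant and 2 of 8 wild-type channels, Mmp10, a second stromelysin, had 1 and 1, and Mmp7, matrilysin, had 2 and 0. Outside the row, Mmp21, Mmp24, Adamts13, which cuts von Willebrand factor, Adamtsl2 and Adamtsl3 were not kept either. Mmp1a and Mmp1b are paralogs, and whether their probes tell them apart was not tested.

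**Figure D1:**
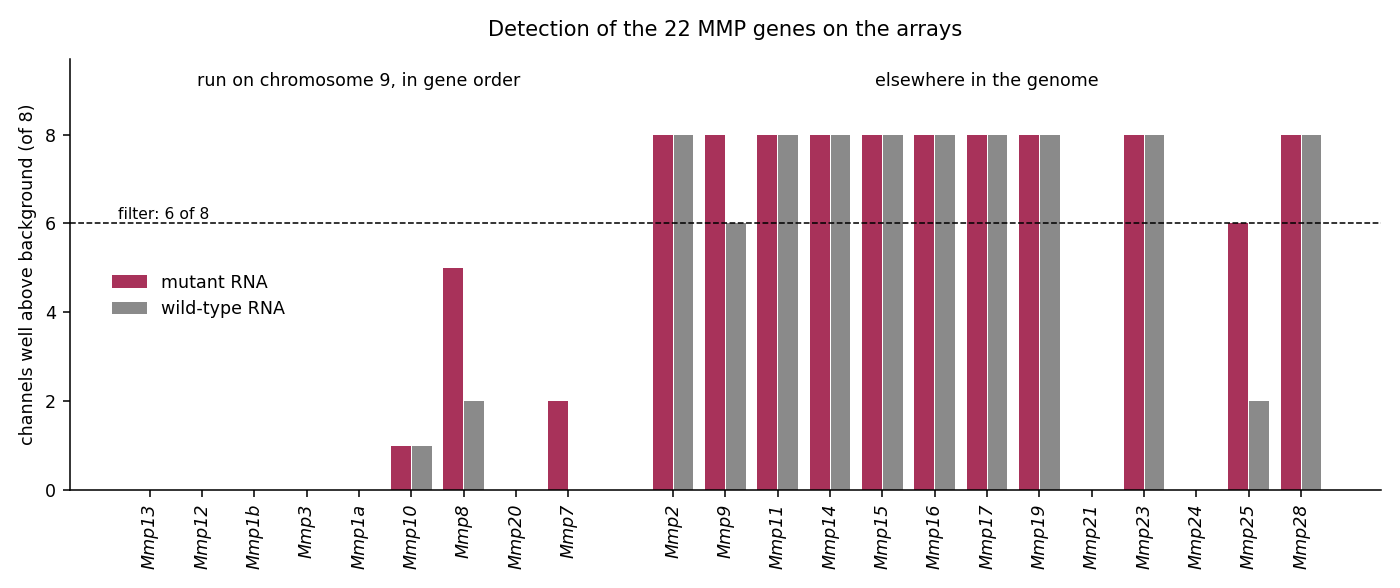
The bars give the number of channels, of 8 per genotype, in which the probe standing for each MMP gene was well above background, with mutant bars left of wild-type bars. The 9 genes of the chromosome 9 row stay below the dashed line at 6, and 11 of the 13 others reach it in at least 1 genotype.

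The promoter letters of that row were set beside those of the kept genes. RefSeq windows of the GRCm38.p6 build, each of 300 bases around a gene's start, were found for 35 of the 50 genes. They were searched on both strands for TGACTCA, the core site of AP-1 transcription factors, whose reverse complement is TGAGTCA, and for the TATA box letters TATAAA, whose reverse complement is TTTATA. The motifs cannot overlap each other. The 110 bases before the start, positions -110 to -1, are printed 5′ to 3′ on the gene's strand, with both motifs in capitals. The first 7 genes are shown because they are those of the row with the AP-1 letters. Mmp11 and Mmp14 are shown as kept MMP genes, and Adamts1 as the kept gene with the TATA letters.
Mmp13, chr9:7272404-7272513, plus strand: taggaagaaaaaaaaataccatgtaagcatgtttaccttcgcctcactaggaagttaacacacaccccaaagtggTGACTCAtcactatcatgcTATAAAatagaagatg
Mmp12, chr9:7347264-7347373, plus strand: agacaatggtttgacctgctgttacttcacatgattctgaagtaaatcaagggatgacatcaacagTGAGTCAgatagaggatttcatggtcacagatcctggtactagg
Mmp1b, chr9:7388027-7388136, minus strand: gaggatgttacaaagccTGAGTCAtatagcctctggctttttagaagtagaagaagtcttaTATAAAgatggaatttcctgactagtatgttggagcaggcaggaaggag
Mmp3, chr9:7445712-7445821, plus strand: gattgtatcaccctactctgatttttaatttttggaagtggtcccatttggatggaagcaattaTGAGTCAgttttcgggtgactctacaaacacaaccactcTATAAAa
Mmp1a, chr9:7464031-7464140, plus strand: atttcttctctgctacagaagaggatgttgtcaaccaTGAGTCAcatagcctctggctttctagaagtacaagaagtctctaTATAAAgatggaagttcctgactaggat
Mmp10, chr9:7502232-7502341, plus strand: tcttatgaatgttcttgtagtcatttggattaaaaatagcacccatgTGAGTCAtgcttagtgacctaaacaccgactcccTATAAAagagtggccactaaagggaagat
Mmp7, chr9:7691980-7692089, plus strand: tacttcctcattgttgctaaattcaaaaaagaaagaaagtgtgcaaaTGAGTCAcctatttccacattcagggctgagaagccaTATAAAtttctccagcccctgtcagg
Mmp11, chr10:75932503-75932612, minus strand: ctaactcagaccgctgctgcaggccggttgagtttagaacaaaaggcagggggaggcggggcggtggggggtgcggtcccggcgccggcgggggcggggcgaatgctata
Mmp14, chr14:54431488-54431597, plus strand: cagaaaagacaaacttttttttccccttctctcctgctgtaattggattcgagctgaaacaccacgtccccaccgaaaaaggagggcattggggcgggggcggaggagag
Adamts1, chr16:85803114-85803223, minus strand: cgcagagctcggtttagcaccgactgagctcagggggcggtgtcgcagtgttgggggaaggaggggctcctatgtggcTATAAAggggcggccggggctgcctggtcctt

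The AP-1 letters were found in 7 of the 9 genes of the row with a window, in 0 of 5 other genes that were not kept and in 0 of 21 kept genes. They start at -35 in Mmp13, -44 in Mmp12, -93 in Mmp1b, -46 in Mmp3, -73 in Mmp1a and -63 in both Mmp10 and Mmp7. Of all 32851 windows, 5.2% hold them. The TATA letters were found in 9 of 9 genes of the row, 2 of 5 others not kept and 1 of 21 kept genes, against 13.6% of all windows. In Mmp12 they lie at position 5, after the start and outside the printed stretch. Adamts1 has them at -32. Mmp12 and Mmp7 each have a second window, with neither motif. A gene was counted if any of its windows held the letters, whereas the shares over all windows count each window singly. The median GC content was 42.7% over the 11 windows of the row and 66.0% over the 22 windows of kept genes, against 52.7% over all windows. A match is a description of these letters, not of a bound site. No window was found for 15 genes, among them Mmp9, Mmp16 and Mmp19.

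The targeted gene and the tissue were checked next. Mdm4 was at -0.18 ± 0.07 on the log2 scale (mean log2 ratio of mutant over wild type ± SE), lower in all 4 pairs and without a pass (limma adjusted p = 0.471). Markers of nephron progenitors (8 of 8), ureteric bud (12 of 12), renal stroma (12 of 12) and podocytes (7 of 7) were all measured. An array had 62976 spots, of which 3671 were controls. Of the other spots, 60.7% to 70.2% passed the scanner's background flag per channel, with 0 saturated. The median SE over all genes tested was 0.07. The mean log2 ratio of the Y-linked transcripts was 2.76, 1.31, -1.64 and 2.83 in pairs 1 to 4. It was far from 0 in every pair, with the other sign in pair 3. The sex-linked transcript Xist ran the opposite way, at -2.71, -0.23, 2.48 and -2.80. Each comparison of mutant with wild type thus carries a difference in sex-linked transcripts. The parts of sex and genotype cannot be fully told apart with 4 pairs. The labels used here do not give the sex of the embryos.

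Across the 36 kept genes the mutant values lay mostly above wild type, by small amounts. With Benjamini-Hochberg adjustment over all genes, limma put 0 of 36 members and 0 of 16013 genes (0.00%) under 0.05. At an unadjusted p of 0.05, 9 members were higher, which is 25.0% of them, against 7.01% of all genes. None were lower, against 3.60% of all genes. The log2 ratio was above 0 for 28 members (77.8%) and below 0 for 8, against 53.9% of all genes above 0. With each array centred on its median in place of loess, these shares were 88.9% of members and 81.8% of all genes, and the median of all genes moved to 0.14 from 0.01 with loess. Members higher in all 4 pairs numbered 14, against 12.1% of all genes, and those higher on all 8 arrays 7, against 3.35%. No member was lower in all 4 pairs, against 7.84% of all genes. Mmp25 is among those above 0 and those higher in all 4 pairs, although its filter favoured such a difference. Without it the counts were 27 of 35 above 0 (77.1%) and 13 higher in all 4 pairs.

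The median log2 ratio of the 36 members was 0.12, with 0.20, 0.09, 0.05 and 0.15 in pairs 1 to 4, against 0.01 over all genes. Without Mmp25 the median of the members was 0.12. By family it was 0.08 for the MMP genes, Mmp25 among them, 0.14 for ADAMTS, 0.19 for ADAMTS-like and 0.03 for TIMP. Members above 0 numbered 31 in pair 1, 24 in pair 2, 23 in pair 3 and 24 in pair 4. Single means ran from -0.16 for Mmp14 to 0.45 for Adamts4. Without pair 1 the MMP median was -0.02, and without pair 3 the ADAMTS median was 0.21. The count of 9 members was 5 without pair 1 or without pair 2, 12 without pair 3 and 7 without pair 4. These were 13.9%, 13.9%, 33.3% and 19.4% of members without pairs 1, 2, 3 and 4. The shares over all genes in the same runs were 7.05%, 4.81%, 5.81% and 4.7%. With the Y-linked difference of each pair as a covariate the count of members was 3 (8.33%), beside 684 of all genes (4.27%).

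**Figure D2:**
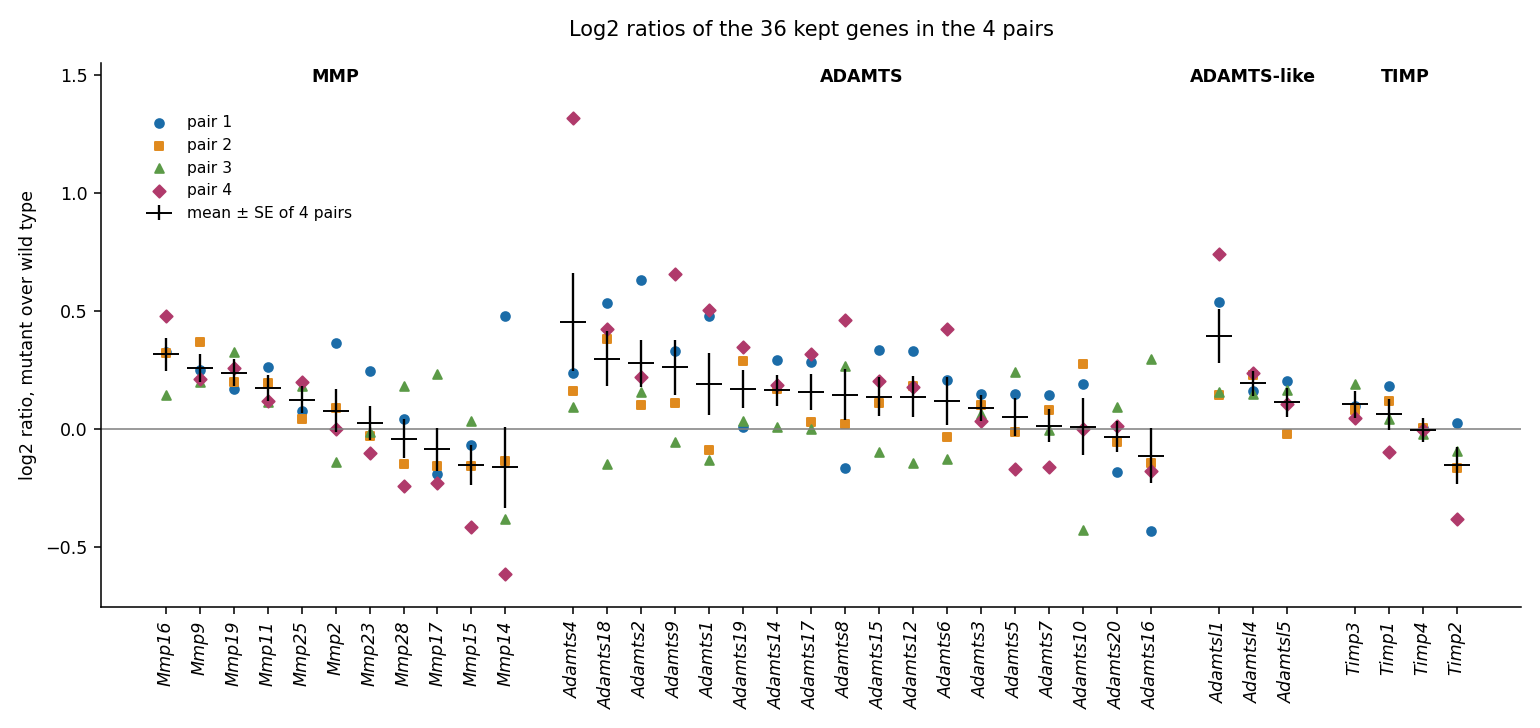
Each column is 1 of the 36 kept genes, sorted by mean within its family, and the vertical axis is the log2 ratio of mutant over wild type. Coloured points are the 4 pairs and black bars the mean ± SE; Adamts4 in pair 4 stands highest at 1.32 and Mmp14 in pair 4 lowest at -0.61.

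Among the gelatinases, which cut denatured and basement membrane collagen, Mmp9 was higher in the mutant in every pair while Mmp2 was not. Mmp9 had log2 intensities of 7.26, 7.16, 7.03 and 7.04 in the mutant RNAs of pairs 1 to 4, against 7.01, 6.78, 6.82 and 6.82 in the wild-type RNAs. Every mutant RNA stood above every wild-type RNA, as for 4 members in all, the others being Mmp11, Mmp16 and Adamtsl1, against 3.30% of all genes. For 0 members did every mutant RNA stand below every wild-type RNA, against 1.52% of all genes. The log2 ratio of Mmp9 was 0.26 ± 0.06, or 1.197-fold (limma unadjusted p = 0.00385, adjusted p = 0.366). A second kept probe of Mmp9 gave 0.22. Mmp9 lay near background, with 8 of 8 mutant and 6 of 8 wild-type channels above it, where the background correction shrinks ratios. Its log2 ratio was 0.36 with no background correction, 0.37 with a background correction offset of 16 and 0.82 with Agilent's processed signals. That ratio was 0.23 with median centring and 0.24 with the median of its kept probes. Which of these values is nearest the true ratio was not tested.

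Mmp2, made mainly by mesenchymal cells, had log2 intensities of 12.74, 12.23, 12.21 and 12.30 in mutant RNAs, against 12.38, 12.14, 12.35 and 12.30 in wild-type RNAs. The groups overlapped, and pair 1 held the highest mutant value. Its log2 ratio was 0.08 ± 0.09 (limma adjusted p = 0.756), and -0.02 without pair 1. It was 0.15 without pair 3 and 0.25 with median centring.

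Of the stromelysins and the other secreted MMPs, Mmp11 and Mmp19 were the ones higher in all 4 pairs. Mmp11, stromelysin 3, is known from stromal cells beside growing epithelium. It had log2 intensities of 13.22, 13.06, 13.04 and 13.03 in mutant RNAs, against 12.96, 12.86, 12.92 and 12.91 in wild-type RNAs. The groups did not overlap, and the log2 ratio was 0.17 ± 0.06, or 1.128-fold (limma unadjusted p = 0.0209, adjusted p = 0.425). That p was 0.0776 without pair 1, 0.0874 without pair 2 and 0.0925 with the Y-linked covariate. The mean was 0.27 with mutant RNA in Cy5 and 0.07 with it in Cy3.

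Mmp19, which cuts basement membrane proteins, had log2 intensities of 8.17, 7.82, 7.80 and 7.68 in mutant RNAs, against 8.0, 7.62, 7.47 and 7.42 in wild-type RNAs. The groups overlapped, because pair 1 was bright in both genotypes, but the mutant was the higher one in every pair. Its log2 ratio was 0.24 ± 0.06, or 1.181-fold (limma unadjusted p = 0.00503, adjusted p = 0.391). A second probe of Mmp19 was not kept, with 4 of 8 mutant and 5 of 8 wild-type channels above background. That probe gave -0.03, with 0.02, -0.077, 0.033 and -0.103 in pairs 1 to 4. Why the probes differ was not tested. Mmp23 was at 0.03 and Mmp28, known as epilysin, at -0.04 ± 0.08, with pairs of both signs.

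Of the 5 membrane-type MMPs that were kept, 2 had a mean above 0, Mmp16 and Mmp25, and 3 below. Mmp25 passed the filter only through its mutant channels, so it supports nothing here. Without it 4 were kept, with Mmp16 alone above 0. Mmp16, which can activate the precursor of Mmp2 at the cell surface, had log2 intensities of 9.595, 9.56, 9.53 and 9.55 in mutant RNAs, against 9.27, 9.23, 9.38 and 9.07 in wild-type RNAs. All mutant values lay within 0.1 of each other and above all wild-type values. The log2 ratio was 0.32 ± 0.07, or 1.247-fold (limma unadjusted p = 0.00349, adjusted p = 0.359, the smallest among the members). A second kept probe of Mmp16 gave 0.11, with -0.03 in pair 3.

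Mmp14, the main activator of Mmp2, had log2 intensities of 11.36, 10.71, 10.77 and 10.40 in mutant RNAs, against 10.88, 10.84, 11.15 and 11.01 in wild-type RNAs. The mutant was the higher one in pair 1 and the lower one in pairs 2, 3 and 4. Its log2 ratios were 0.48, -0.13, -0.38 and -0.61, with a mean of -0.16 ± 0.17 (limma adjusted p = 0.741). Without pair 1 the mean was -0.37 (limma unadjusted p = 0.0167), and without pair 4 it was -0.01. With median centring it was -0.006.

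Mmp15 had log2 ratios of -0.07, -0.16, 0.03 and -0.41, with a mean of -0.15 ± 0.08 (limma adjusted p = 0.558). Mmp17, held by a lipid anchor, was at -0.08 ± 0.09, with -0.19, -0.15, 0.23 and -0.23. For both, pair 3 was the pair above 0. The mean of Mmp17 was -0.19 without pair 3 (limma unadjusted p = 0.0313), -0.049 without pair 1 (limma unadjusted p = 0.67) and -0.037 without pair 4 (limma unadjusted p = 0.732). That of Mmp15 was -0.063 without pair 4 (limma unadjusted p = 0.378), and -0.035 with mutant RNA in Cy5 against -0.27 with it in Cy3. Mmp25 was at 0.13 ± 0.06.

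**Figure D3:**
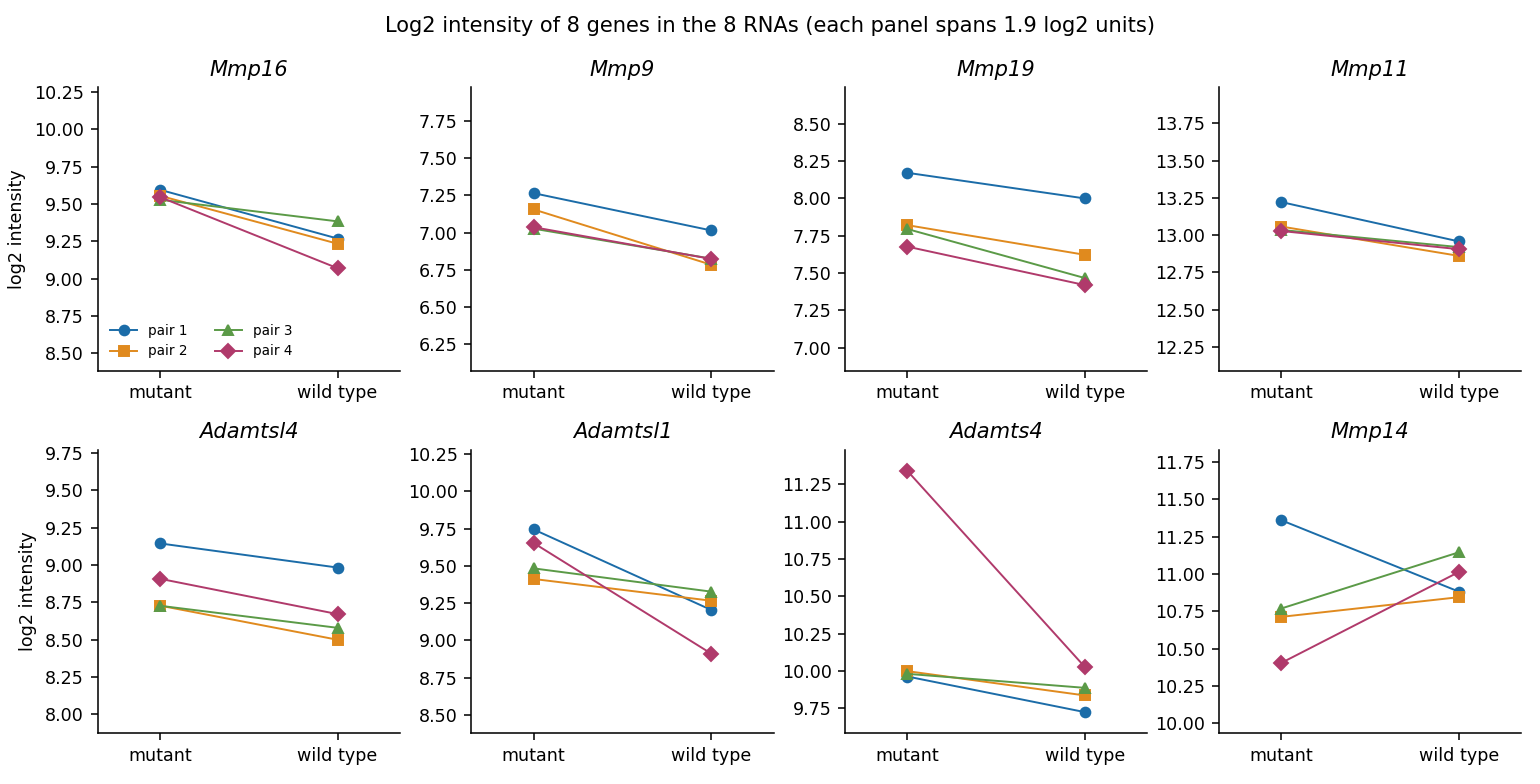
Log2 intensities of 8 genes are shown for mutant RNAs (left) and wild-type RNAs (right), with a line joining the RNAs of a pair. Mmp16, Mmp9, Mmp11 and Adamtsl1 have no overlap between genotypes, Adamts4 has 1 high mutant RNA (pair 4, 11.34), and Mmp14 has lines running both ways.

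Mmp7, matrilysin, is an epithelial protease and was not kept. Its log2 intensities were 6.58, 6.62, 6.69 and 7.71 in mutant RNAs, against 6.62, 6.70, 6.66 and 6.69 in wild-type RNAs. The mutant RNA of pair 4 was the one that stood out, and both of its channels were above background, on both arrays of the pair. The other 3 mutant RNAs and all 4 wild-type RNAs had 0 channels above it, so their levels are background and no fold is given. No fold is given for the other 13 genes that were not kept either, among them Adamts13, with 1 of 8 mutant and 0 of 8 wild-type channels above background.

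The 3 ADAMTS genes for procollagen-cleaving enzymes, Adamts2, Adamts3 and Adamts14, were each higher in all 4 pairs. Their products cut the amino-terminal propeptides of fibrillar procollagens. Adamts2 had log2 intensities of 11.15, 10.60, 10.60 and 10.36 in mutant RNAs, against 10.52, 10.50, 10.44 and 10.14 in wild-type RNAs. Pair 1 held the largest difference, and the groups overlapped. Its log2 ratio was 0.28 ± 0.10 (limma unadjusted p = 0.0283, adjusted p = 0.442), and 0.16 without pair 1. The unadjusted p was 0.0602 without pair 1 and 0.0537 without pair 4.

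Adamts14 was at 0.29, 0.17, 0.01 and 0.19 in pairs 1 to 4, with a mean log2 ratio of 0.17 ± 0.07 (limma unadjusted p = 0.0439, adjusted p = 0.465). Leaving out pair 1, 2 or 4 took its unadjusted p to 0.152, 0.1246 and 0.0914. With the Y-linked covariate its mean was 0.096 (limma unadjusted p = 0.231). The dye orientations gave 0.06 with mutant RNA in Cy5 and 0.27 with it in Cy3. Adamts3 was at 0.15, 0.10, 0.07 and 0.04, with a mean of 0.09 ± 0.05.

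The proteoglycan-cleaving ADAMTS genes have products that cut aggrecan and versican. Of the 7, 6 had a mean above 0 and 0 had an unadjusted p under 0.05. Adamts4 and Adamts1 are described as genes chosen after their values were seen. Adamts4, an aggrecanase, had log2 intensities of 9.96, 9.998, 9.98 and 11.34 in mutant RNAs, against 9.72, 9.84, 9.89 and 10.02 in wild-type RNAs. The mutant RNA of pair 4 lay far above the others. The log2 ratio was above 0 on all 8 arrays, with 0.24, 0.16, 0.09 and 1.32 in pairs 1 to 4 and a mean of 0.45 ± 0.21 (limma unadjusted p = 0.0703, adjusted p = 0.502). Without pair 4 the mean was 0.16 (limma unadjusted p = 0.0421), and with the Y-linked covariate 0.25 (limma unadjusted p = 0.337).

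Adamts9 and Adamts1 were high in pairs 1 and 4. Adamts9 had log2 ratios of 0.33, 0.11, -0.05 and 0.66, with a mean of 0.26 ± 0.12 (limma unadjusted p = 0.0670, adjusted p = 0.499), and 0.37 without pair 3 (limma unadjusted p = 0.0234). Without pair 4 it was at 0.13 (limma unadjusted p = 0.2025), and with the Y-linked covariate at 0.098 (limma unadjusted p = 0.378). Adamts1, needed in mouse for a normal renal pelvis, had log2 ratios of 0.48, -0.09, -0.13 and 0.51, with a mean of 0.19 ± 0.13. That mean was 0.097 without pair 1, 0.30 without pair 3, 0.088 without pair 4 and 0.007 with the covariate. Adamts8 ran from -0.17 in pair 1 to 0.46 in pair 4, and Adamts15 was at 0.14 ± 0.08. Adamts5, the other main aggrecanase, was at 0.05 ± 0.08. A second kept probe of Adamts5 gave 0.18, with 0.217, 0.185, 0.115 and 0.199 in pairs 1 to 4. Adamts20, a versican protease needed in mouse for pigment cells of the trunk, was at -0.03 ± 0.07.

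Of the 6 remaining ADAMTS genes outside the enzymes for cartilage oligomeric matrix protein, Adamts18 had the smallest p. It had log2 intensities of 10.22, 9.94, 9.999 and 9.81 in mutant RNAs, against 9.69, 9.56, 10.15 and 9.38 in wild-type RNAs. In pair 3 the mutant was the lower one, and in the other pairs it was the higher one. The log2 ratio was 0.30 ± 0.12 (limma unadjusted p = 0.0426, adjusted p = 0.459), and 0.45 without pair 3 (limma unadjusted p = 0.0011). Leaving out pair 1, 2 or 4 put that p at 0.153, 0.123 and 0.128. The mean was 0.11 with the Y-linked covariate (limma unadjusted p = 0.198) and 0.18 when Cy5 alone carried the mutant RNA (limma unadjusted p = 0.211). Adamts16 ran the other way, with log2 ratios of -0.43, -0.14, 0.30 and -0.18 and a mean of -0.11 ± 0.12 (limma adjusted p = 0.733). Its mean was -0.25 without pair 3 (limma unadjusted p = 0.0305) and -0.006 without pair 1 (limma unadjusted p = 0.957).

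Adamts17 and Adamts19 were above 0 in all 4 pairs, with means of 0.16 ± 0.08 and 0.17 ± 0.08. Their sign went with the dye: Adamts17 was at 0.41 with mutant RNA in Cy5 and -0.09 with it in Cy3, and Adamts19 at 0.40 and -0.05. The fibrillin-linked genes Adamts6 and Adamts10 were at 0.12 ± 0.10 and 0.01 ± 0.12. Adamts6 was at 0.38 with mutant RNA in Cy5 and -0.14 with it in Cy3, and a second kept probe gave 0.22. For Adamts10 and Adamts17 the 2 kept probes had means of opposite sign. Adamts7 and Adamts12, whose products cut cartilage oligomeric matrix protein, were at 0.02 ± 0.07 and 0.14 ± 0.09. Over the 18 ADAMTS genes, 10 had their lowest ratio in pair 3, and the family median was 0.22, 0.10, 0.004 and 0.21 in pairs 1 to 4. The median of all genes tested was -0.01, -0.003, 0.04 and 0.03. How many of all genes had their lowest ratio in pair 3 was not counted.

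The 3 measured ADAMTS-like genes had a median of 0.19, against 0.14 for ADAMTS genes. The order was the other way round without pair 3 (0.209 against 0.214) and with no filter on dim probes (0.114 against 0.138). Adamtsl1, which encodes the matrix protein punctin, had log2 intensities of 9.74, 9.41, 9.48 and 9.65 in mutant RNAs, against 9.20, 9.27, 9.33 and 8.91 in wild-type RNAs. The groups did not overlap, and pairs 1 and 4 held the larger differences. Its log2 ratio was 0.40 ± 0.11, or 1.316-fold (limma unadjusted p = 0.0128, adjusted p = 0.406). That p was 0.0523 without pair 1. With the Y-linked covariate the log2 ratio was 0.25 (limma unadjusted p = 0.0684). A second kept probe gave 0.18.

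Adamtsl4, a fibrillin-binding protein, had log2 ratios of 0.16, 0.23, 0.15 and 0.24, which are alike in all 4 pairs. Its log2 intensities were 9.14, 8.73, 8.73 and 8.91 in mutant RNAs, against 8.98, 8.499, 8.58 and 8.67 in wild-type RNAs. The mean log2 ratio was 0.19 ± 0.05, or 1.144-fold (limma unadjusted p = 0.0104, adjusted p = 0.398). The unadjusted p was 0.0585 without pair 2 and 0.0501 with the Y-linked covariate. Adamtsl5 was at 0.11 ± 0.06, with -0.02 in pair 2, and its second kept probe gave 0.019.

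Of the 4 inhibitor genes, 2 had a mean above 0 and 2 below, and none had means of 1 sign in both dye orientations. Timp1, a soluble inhibitor, had log2 intensities of 12.16, 12.03, 12.03 and 11.83 in mutant RNAs, against 11.97, 11.91, 11.99 and 11.93 in wild-type RNAs. The mutant was the lower one in pair 4 and the higher one in the others, with a mean log2 ratio of 0.06 ± 0.07 (limma adjusted p = 0.735). Timp4 was close to background, with 6 of 8 channels above it in both genotypes, and its log2 ratio was -0.004 ± 0.05.

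Timp2, which also helps Mmp14 to activate Mmp2, had log2 intensities of 15.48, 15.24, 15.16 and 14.67 in mutant RNAs, against 15.45, 15.40, 15.25 and 15.05 in wild-type RNAs. Its log2 ratios were 0.03, -0.17, -0.09 and -0.38, with a mean of -0.15 ± 0.08 (limma adjusted p = 0.537). With mutant RNA in Cy5 the arrays gave -0.18, -0.52, -0.55 and -0.77, against 0.23, 0.19, 0.36 and 0.01 with it in Cy3. The direction thus went with the dye in every pair. With median centring the mean was 0.02.

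Timp3, which binds to the matrix and also blocks ADAMTS enzymes, had log2 intensities of 12.65, 12.46, 12.53 and 12.18 in mutant RNAs, against 12.55, 12.38, 12.34 and 12.13 in wild-type RNAs. Its log2 ratios of 0.10, 0.08, 0.19 and 0.05 gave a mean of 0.11 ± 0.06 (limma adjusted p = 0.547). A second kept probe gave 0.22, with 0.427 in pair 4, and the median of both probes was 0.165 (limma unadjusted p = 0.0215). The orientations gave means of -0.16 with mutant RNA in Cy5 and 0.37 with mutant RNA in Cy3. These were the 2 members with all 4 arrays of one orientation below 0 and all 4 of the other above it. Of the 36 members, 23 had means of 1 sign in both orientations, 19 above 0 and 4 below. Neither count was made over all genes, so no share of all genes stands beside them.

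**Figure D4:**
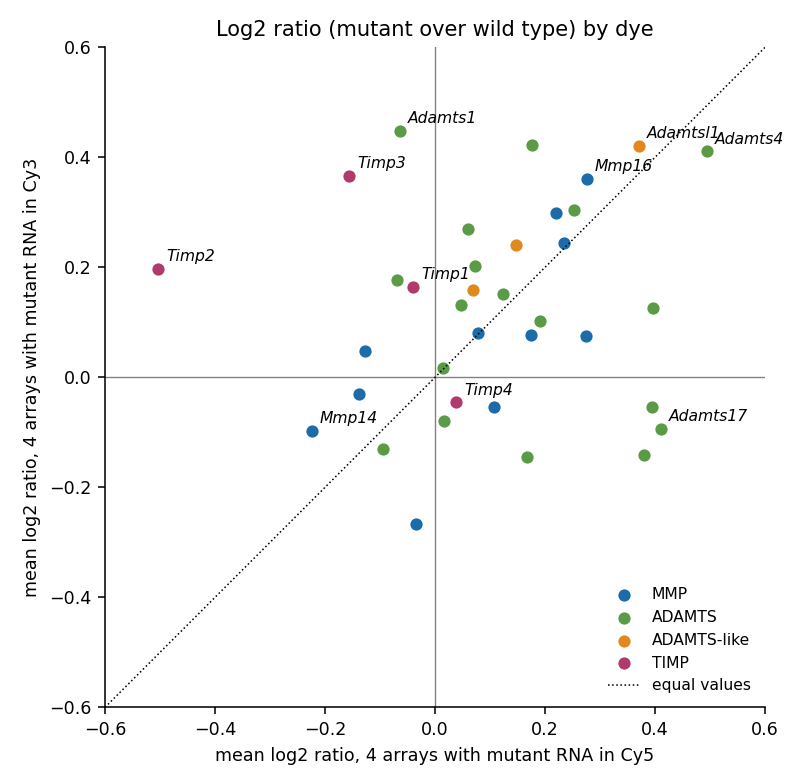
Each point is 1 of the 36 kept genes, with its mean log2 ratio of mutant over wild type when mutant RNA was in Cy5 (horizontal, 4 arrays) and in Cy3 (vertical, 4 arrays). Points near the dotted line have like values in both orientations; Timp2 (-0.50 and 0.20) and Timp3 (-0.16 and 0.37) lie far from it.

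Other genes of the same pathways were taken from lists by role. Beside their counts, 53.9% of all genes tested were above 0, 7.01% had an unadjusted p under 0.05 and were higher, and 3.60% had one and were lower. Of 10 cathepsins and other matrix proteases, 10 were above 0 and 4 had an unadjusted p under 0.05, all higher, with a list median of 0.25. Ctss, a lysosomal protease of phagocytes, was at 0.38 ± 0.07 (limma unadjusted p = 0.00142, adjusted p = 0.304), the secreted serine protease gene Htra1 at 0.36 ± 0.07 and its relative Htra3 at 0.29 ± 0.08. Ctss was higher by 0.26, 0.27, 0.47 and 0.52 in pairs 1 to 4.

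Of 14 substrates 12 were above 0 and 6 had such a p, all higher, with a list median of 0.22. Col3a1, a fibrillar collagen, was at 0.36 ± 0.05 with log2 ratios of 0.39, 0.38, 0.31 and 0.37 (limma unadjusted p = 0.000392, adjusted p = 0.232). The small proteoglycan genes Lum and Dcn were at 0.67 ± 0.10 and 0.46 ± 0.11. The other 3, named after their values were seen, were Col1a2 at 0.21 ± 0.07, Col1a1 at 0.28 ± 0.10 and Thbs1 at 0.24 ± 0.10. Col3a1, Lum, Dcn and Col1a1 also stand in the stroma marker list.

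Of 12 genes that activate metalloproteases or hold them at the cell surface, 1 had a p under 0.05. It was Cd44, a surface receptor that can dock Mmp9, at 0.44 ± 0.13 with 0.18, 0.41, 0.25 and 0.92 in pairs 1 to 4. The convertase gene Furin, which removes the propeptide of Mmp14, was at -0.11 ± 0.07, and the membrane-bound inhibitor gene Reck at 0.07 ± 0.08. Of 7 plasmin system genes 1 had such a p, Serpine2, an inhibitor of plasminogen activators, at 0.40 ± 0.12. Of 9 ADAM sheddase genes and 5 astacin and procollagen enhancer genes 0 did. The list medians were 0.06, 0.14, 0.06 and 0.10 in the order given.

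Markers of several cell types also differed between genotypes at an unadjusted p, and none passed an adjusted p of 0.05. Beside the counts below, 53.9% of all genes tested were above 0. At a limma unadjusted p under 0.05, 7.01% of all genes were higher and 3.60% lower. In whole kidneys fewer cells of a type and less RNA per cell cannot be told apart. All 12 stroma markers were above 0, 8 with an unadjusted p under 0.05. Their median was 0.28, with 0.36, 0.27, 0.14 and 0.43 in pairs 1 to 4. Their summed intensity ran from 157618 to 232276 in mutant RNAs, against 131651 to 170232 in wild-type RNAs. All 10 macrophage markers were above 0, 5 with such a p, with a median of 0.27 and with 0.45, 0.05, 0.14 and 0.40 in pairs 1 to 4. Their sum ran from 11040 to 15907 in mutant RNAs, against 9780 to 11669 in wild-type RNAs. All 12 ureteric bud markers were below 0, 8 with such a p, with a median of -0.42 and with -0.65, -0.34, -0.00011 and -0.66 in pairs 1 to 4. Their sum ran from 103783 to 132621 in mutant RNAs, against 127312 to 180064 in wild-type RNAs. All 7 podocyte markers were above 0, 5 with such a p, with a median of 0.34 and with 0.09, 0.11, 0.41 and 0.61 in pairs 1 to 4. Their sums ran from 38877 to 61742 in mutant RNAs, against 34464 to 36692 in wild-type RNAs. The part of these cell types in the values of the protease genes was not tested.

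Neutrophil transcripts were read beside Mmp8, Mmp9 and Mmp25, which leukocytes can express. Of 10 neutrophil markers 6 were measured, Ltf, Ngp and Cxcr2 were not kept, and Ly6g had no named probe. The 6 named next were chosen after their values were seen. S100a8 was at 0.85, 0.35, 0.29 and 3.045 and S100a9 at 1.01, 0.56, 0.71 and 3.88 in pairs 1 to 4, so both were highest in pair 4. The list of 6 had a median of 0.18, with 0.28, 0.29, 0.17 and 0.008 in pairs 1 to 4. Of the 6, 4 were above 0 and 2 below, and Camp (-0.013) and Csf3r (-0.087) were not higher in pair 4. Mpo was higher by 0.30, 0.39, 0.40 and 0.03, whereas Elane was lower in all 4 pairs, with a mean of -0.15 ± 0.06. The summed intensity of the 6 ran from 33463 to 56299 in mutant RNAs, against 33677 to 62770 in wild-type RNAs. Endothelial, smooth muscle, red blood cell and nephron progenitor lists had medians of 0.06, -0.08, 0.007 and 0.03. Whether leukocytes had a part in the values of these genes was not tested.

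**Figure D5:**
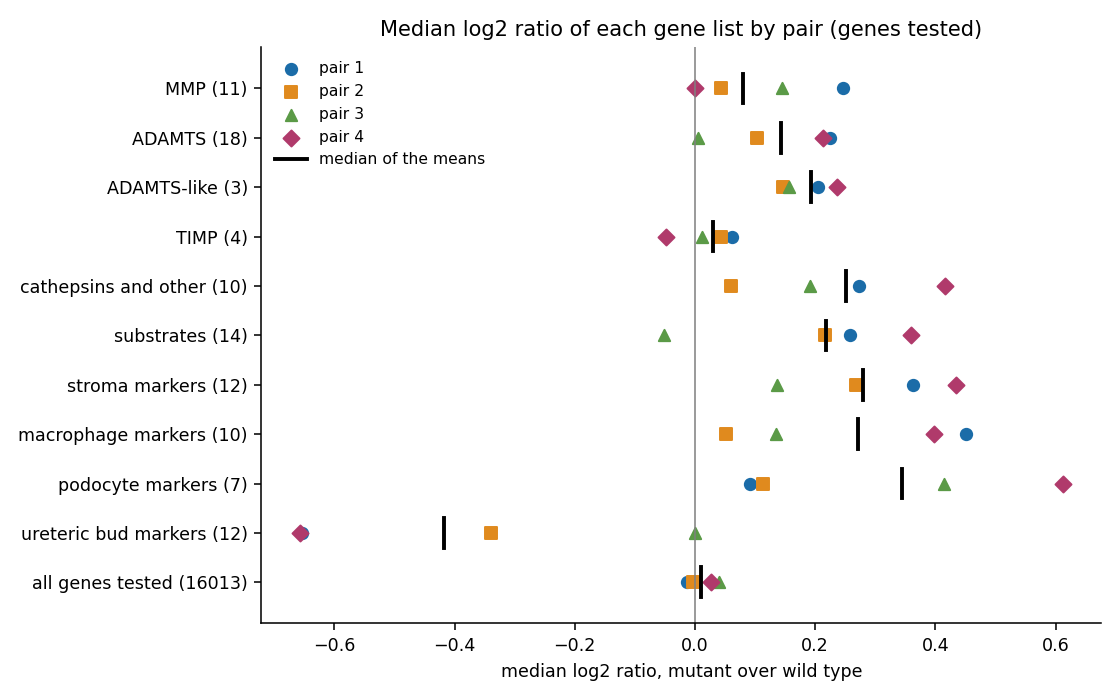
Rows are gene lists with the number of genes tested in brackets, and the horizontal axis is the median log2 ratio of mutant over wild type. Coloured points are the medians in pairs 1 to 4 and black bars the medians of the genes' means; in pair 3 the ADAMTS median (0.004) and the ureteric bud median (-0.00011) both lie near 0, and all genes tested stay near 0 in every pair.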

How the data were processed

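RNA of mutant and wild-type kidneys (100 ng per labelling, per the labels' protocols) was hybridised to 2-colour Agilent arrays. Per the file headers, the deposited scanner values are median spot and background intensities for each colour. Log10 ratios (Cy5 over Cy3) make up the deposited series table, within 0.005 of the scanner's own. Scanning software was Agilent Feature Extraction, version 10.7.3.1 per the file headers and 8.5.1.1 per the submitters' processing notes. All 8 arrays lay on 1 slide, and dye orientation went with slide position.

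Intensities were then normalised in limma 3.58.1 (R 4.3.3). Background was corrected with normexp (offset 50), which shrinks ratios of dim probes, and each array went through loess. Median signals took the place of the mean signals named in the written design. On each array 3671 control spots and 95 to 156 outlier spots were left out. Ratios were turned to mutant over wild type, and averaged over both arrays of a pair, giving n = 4 pairs. Genes were named through RefSeq accessions of GRCm38.p6 (58.3% of 56605 probes), and the brightest kept probe stood for a gene. Deposited log ratios were put on the log2 scale for comparison. Log2 ratios were tested against 0 with lmFit and eBayes, two-sided, with Benjamini-Hochberg adjustment over 16013 genes. Errors are SE from this fit. The fit of pair ratios, and the turning and averaging of ratios, were tried on simulated data. Background correction, loess, the filter and the choice of probe were not.

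Members, lists and tests were chosen with earlier results of these data known. The rule named the 4 TIMP genes, Mmp2, Mmp9, Mmp14, up to 10 members per direction with the smallest p, and up to 3 genes of each pathway list, with others where a description needed them. Marker and pathway lists are described by counts and medians, with no test. Alternatives covered normalisation, background, filters, probes, dye orientation, left-out pairs, the pair as a block, sex and centring.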

Additional observations from a re-analysis of the deposited data

Results flagged for a closer look

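Within groups of 4 values, some single values lay far from the other 3 by Dixon's criterion at 95%. It was applied to 37 groups of log2 ratios and 48 groups of log2 intensities, and chance flags about 1 in 20 such groups. The log2 ratio of mutant over wild type stood apart for Adamts4 in pair 4 (1.32), for Mmp7, which was not kept, in pair 4 (1.02, with a wild-type level at background), and for Mmp17 in pair 3 (0.23). Among mutant RNAs the log2 intensity stood apart for Adamts4 (11.34) and Mmp7 (7.71) in pair 4, for Mmp2 (12.74) and Mmp11 (13.22) in pair 1, and for Mmp17 in pair 4 (9.33).

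All 4 arrays with mutant RNA in Cy5 lay below 0 and all 4 with mutant RNA in Cy3 above 0 for 2 inhibitor genes. The difference between the orientations, Cy5 minus Cy3, was -0.70 for Timp2 and -0.52 for Timp3 on the log2 scale. This difference was not tested, and how many of all genes split in this way was not counted.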

How the results depend on the processing

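Of 389 recomputed values of 23 members, 366 kept their direction and side of the adjusted threshold, 23 turned sign, and no member passed an adjusted p of 0.05 in any alternative. Part of this agreement was fixed in advance. The filter runs and the fit of all 8 arrays gave these members the same log2 ratio as the main run. So did the median of probes for genes with 1 kept probe, and the series table nearly repeated the processed signals. Mmp9, Mmp16 and Mmp19 kept an unadjusted p under 0.05 in every alternative run, at most 0.0287, 0.0205 and 0.0227, except that Mmp9 was not tested where all 16 channels had to be above background. Over all genes limma called 42 with median centring and 45 with all 8 arrays in 1 fit, with the dye as a coefficient and the pair as replicate block (correlation within a pair 0.586), against 0. The pair numbers stand for arrays of the same 2 RNAs, and the block changed no call of a member. Higher genes at an unadjusted p of 0.05 numbered 3774 with median centring, 2293 on Cy3-mutant arrays and 684 with the sex covariate, against 1123, and 753 to 1129 without a pair. Lower genes numbered 92 with median centring, 1608 on Cy5-mutant arrays and 1369 on Cy3-mutant arrays, against 576, and 240 to 816 without a pair. Higher members numbered 18 with median centring (50% of them, against 23.6% of all genes) and 3 with the sex covariate (8.33% against 4.27%). Without a pair they numbered 5 to 12 (13.9% to 33.3%, against 4.7% to 7.05% of all genes). Lower members numbered 1 on Cy5-mutant and 1 on Cy3-mutant arrays, and 0 to 2 without a pair.

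Median centring gave medians of 0.205 for all members, 0.284 for ADAMTS-like genes, 0.124 for TIMP genes and 0.135 for all genes. The ADAMTS-like median was 0.244 with processed signals and with the deposited series table, 0.114 with no filter, 0.147 on Cy5-mutant arrays and 0.241 on Cy3-mutant arrays. The TIMP median was -0.098 on Cy5-mutant and 0.181 on Cy3-mutant arrays. Median centring turned the sign of Timp2 (0.017), Mmp17 (0.039), Mmp28 (0.033) and Adamts16 (0.0046). Cy5-mutant arrays turned Timp1 (-0.039), Timp3 (-0.156), Timp4 (0.039), Adamts20 (0.017) and Adamts1 (-0.064), and Cy3-mutant arrays turned Timp2 (0.197) and Mmp28 (0.047). The sex covariate turned Mmp2 (-0.015), Mmp17 (0.047), Mmp28 (0.044), Adamts16 (0.065) and Adamts20 (0.022). Timp4 was at 0.081 with processed signals and with the series table, and at 0.015 with the median of its probes. Without a pair, Timp4 ran from -0.0066 to 0.0020, Mmp2 from -0.016 to 0.152, Mmp28 from -0.114 to 0.026 and Adamts20 from -0.074 to 0.018. The cause was not tested. Signal over background limited the 14 genes that were not kept and the ratios of Mmp9, Mmp25, Timp4, Adamts3 and Adamts12.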

Other observations

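Of the 13 members with more than 1 kept probe, 10 had means of 1 sign over their probes, and Adamts10, Adamts17 and Timp4 did not. Adamts10 was at 0.01 and -0.12, Adamts17 at 0.16 and -0.01 and Timp4 at -0.004 and 0.03 on their kept probes. The 13 genes that were not kept besides Mmp7 had log2 intensities between 6.25 and 6.96 in every RNA.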
